A study of Arabidopsis thaliana with 4 samples.

Results

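AT3G16530, which encodes a protein of the legume lectin family, and AT3G16670, which encodes a protein of the Ole e 1 family, are 2 genes of Arabidopsis chromosome 3 whose transcripts were far lower in plants expressing CBF2 from the 35S promoter than in wild type. They were chosen from the measured values, as the large falls on chromosome 3 that differ in how well the 35S::CBF2 arrays agree. Each has a single probe set on the ATH1 array. They are 2 of the 13286 genes with a probe set annotated to them alone, which is called here a probe set of their own, and both passed the filter on dim probe sets.

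RNA of whole plants aged 10 days was hybridised to 4 arrays, 2 of wild type and 2 of 35S::CBF2, 1 array per sample. All plants grew on plates at 24 °C under continuous light, following stratification for 4 days at 4 °C, and no later cold treatment is described. The wild type is the accession Ws-2, and the labels do not state the accession of the 35S::CBF2 plants. The 35S::CBF2 samples share 1 replicate number in the labels and are called 1 and 2 here, in the order listed; the title of replicate 1 has the code E24B and that of replicate 2 the code E2A, while the protocol text gives E2 for both, and whether these are different lines is not settled by the labels. The 35S promoter drives expression in most tissues, so the plants do not model CBF2 at its natural sites or levels. The labels describe plates harvested one by one and do not say which plates went into which array, so any p-value measures the spread between these arrays, which may be technical.

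CBF2 belongs to the CBF/DREB1 transcription factors, which bind the CRT/DRE element in promoters and switch on cold-regulated genes when temperature drops. Legume lectins are proteins that bind carbohydrates; in Arabidopsis the transcript of AT3G16530 is known to increase after treatment with chitin oligomers. The Ole e 1 family takes its name from an allergen of olive pollen and comprises small, mostly secreted proteins with conserved cysteines, several of them associated with the cell wall. Sequences and coordinates of these genes were not used here, and their surroundings are described by gene order.

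AT3G16530 had a signal intensity of 377 on wild type replicate 1, 414 on wild type replicate 2, 24.6 on 35S::CBF2 replicate 1 and 34.2 on its replicate 2. Both 35S::CBF2 arrays lay far below both wild type arrays, and the arrays of each group lay close together. The geometric mean fell from 395 to 29.0, a log2 difference of -3.77 ± 0.22 (SE, n = 2 arrays per group), or 13.6-fold. Set singly against the wild type arrays, replicate 1 was 15.3-fold and 16.8-fold lower and replicate 2 was 11.0-fold and 12.1-fold lower. The lectin transcript thus retained 6.23% of the wild type level on replicate 1 and 8.66% on replicate 2. Since the gene was chosen for this contrast, these values are a description and carry no test. In RNA from whole plants, fewer cells of a type and less RNA per cell cannot be told apart.

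AT3G16670 was bright in wild type, with signal intensities of 630 and 574, and reached 196 in 35S::CBF2 replicate 1 but only 17.6 in replicate 2. The groups did not overlap, but the 35S::CBF2 arrays were about as far from each other (log2 distance 3.48) as the group means were. The log2 difference between the group means was -3.36 ± 0.78 (SE, n = 2 per group), 10.2-fold, with a log2 SD of 2.46 between the 35S::CBF2 arrays and of 0.0941 between the wild type arrays. Replicate 1 lay 3.06-fold below the wild type mean and replicate 2 lay 34.2-fold below it, so the mean fold describes neither array. The remaining signal was 32.6% of wild type on replicate 1 and 2.92% on replicate 2.

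The 2 genes changed places between the 35S::CBF2 arrays. On replicate 1 the fall of AT3G16530 (16.1-fold against the wild type mean) exceeded that of AT3G16670 (3.06-fold). On replicate 2 that of AT3G16670 (34.2-fold) exceeded that of AT3G16530 (11.6-fold). From replicate 1 to replicate 2 the log2 signal of AT3G16530 was higher by 0.48, while that of AT3G16670 was lower (-3.48). All 4 values in 35S::CBF2 were above a floor of 14.5, which is the brightest value that any of 27 bacterial control probe sets reached on any array. AT3G16670 on replicate 2 was closest, at 1.21 times this floor. AT3G16530 was at 1.70 and 2.36 times the floor on replicates 1 and 2.

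**Figure D1:**
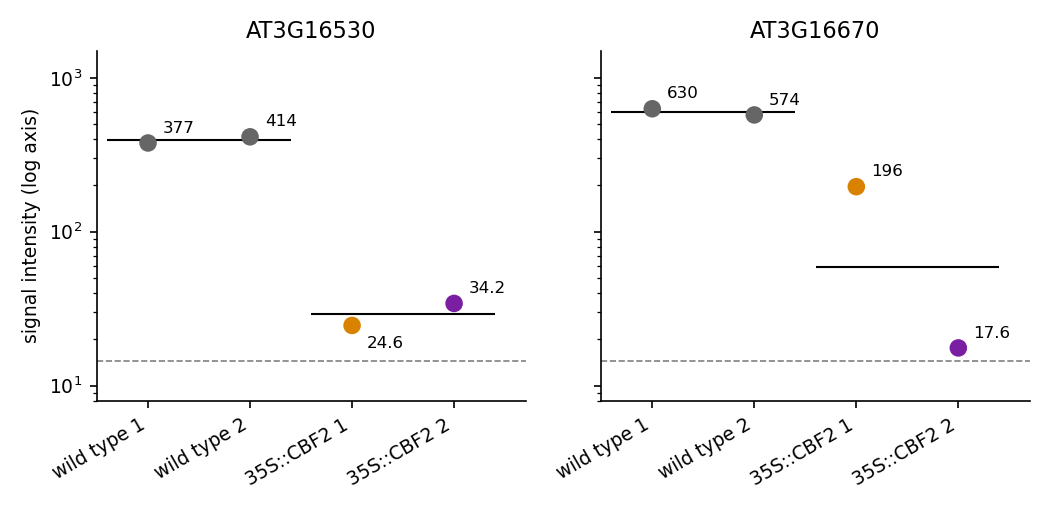
Signal intensity (log axis) of AT3G16530 and AT3G16670 on each array, with points for single arrays, short lines for geometric means of the n = 2 arrays of a group, and a dashed line at 14.5, the highest bacterial control signal. AT3G16530 is low on both 35S::CBF2 arrays (24.6 and 34.2), whereas AT3G16670 is at 196 on replicate 1 and at 17.6 on replicate 2.

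The distance between the 35S::CBF2 arrays was set beside that of all 13647 probe sets bright enough to be tested, those whose mean log2 signal lay above the 40th percentile. AT3G16670 was 11.2-fold apart between these arrays, and 0 of the tested probe sets were farther apart. The median was 1.18-fold and the 95th percentile 1.76-fold, and 325 probe sets (2.38%) were at least 2-fold apart. The wild type arrays, where AT3G16670 differed 1.10-fold, had no probe set farther apart than 8.19-fold. AT3G16530 was 1.39-fold apart between the 35S::CBF2 arrays, and 2744 tested probe sets, 20.1%, were farther apart. The agreement between arrays is part of how the genes were chosen, so these ranks describe them and test nothing. Without the filter on dim probe sets, 394 of 22746 probe sets were farther apart than AT3G16670; that comparison was added after seeing the data.

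Large falls were few among the tested probe sets. A fall of at least 4-fold was seen for 14 of the tested probe sets (0.103%), 4 of which are annotated to exactly 1 gene. Among these 4 is PDF1.2b, a defensin gene whose probe set is nevertheless of a type that can detect related transcripts. Of the 14, 8 differed by less than 2-fold between the 35S::CBF2 arrays, as AT3G16530 did, and 6 by 2-fold or more. Only AT3G16670 among the 14 differed by more than 4-fold. The filter used the mean over all 4 arrays, so it could leave out large falls. The defensin gene PDF1.2 was left out in this way, with a log2 difference of -4.61 and signals below the floor in 35S::CBF2. PDF1.2b, AT3G16530 and AT3G16670 had the 3 largest falls among all tested probe sets. Their order is not settled, since PDF1.2b was below the floor on both 35S::CBF2 arrays: its log2 difference was -4.60 as measured and -3.30 with values under the floor set to the floor, against -3.77 and -3.36 for AT3G16530 and AT3G16670. On chromosome 3, with 1462 tested probe sets of 1 gene, the falls next in size were those of AT3G12860 (log2 difference -1.95) and SWEET16 (-1.72). AT3G12860 was below the floor on 35S::CBF2 replicate 2; with such signals raised to the floor its difference was -1.27, smaller than the -1.70 of SWEET16, and without replicate 2 it was -0.59.

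**Figure D2:**
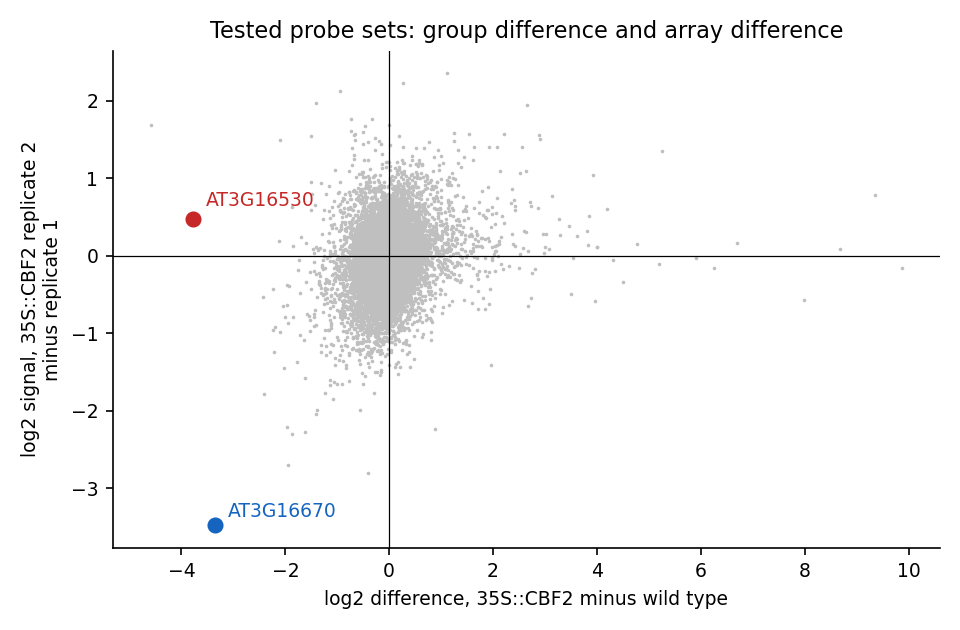
Each grey point is 1 of the 13647 tested probe sets; the horizontal axis is the log2 difference of 35S::CBF2 minus wild type and the vertical axis the log2 signal of 35S::CBF2 replicate 2 minus replicate 1. AT3G16530 lies at -3.77 and 0.48, and AT3G16670 lies at -3.36 and -3.48, the lowest point of the plot.

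The 35S::CBF2 arrays also differed from each other in measures other than these 2 genes. AT3G16670 was lowest on replicate 2. Hybridisation spike-ins, control RNAs added to every sample, were at 1.91 times the wild type mean on replicate 2 (geometric mean over 9 probe sets). On replicate 1 they were at 0.664 times that mean. Summed signals of 5 measured root markers of 6 listed were 2098 and 1679 in wild type, 1622 on 35S::CBF2 replicate 1 and 2325 on replicate 2, with all 5 higher on replicate 2 than on replicate 1. Most of the root sum is PYK10, a beta-glucosidase of root ER bodies, with 1429 on replicate 1 and 2046 on replicate 2. EXPA18, a root hair expansin, had 41.5 and 41.2 in wild type, 25.6 on replicate 1 and 46.7 on replicate 2. The peroxidase gene AT3G49960 had 40.7 and 18.4 in wild type, 7.92 on replicate 1, below the floor, and 37.8 on replicate 2. In both genes, as in PYK10 and the expansin gene EXPA7, replicate 1 was the lowest array. The remaining root marker, AT1G52060, was above wild type (109.6 and 104.7) on both 35S::CBF2 arrays, with 127.5 on replicate 1 and 154.1 on replicate 2. Summed signals of 4 measured leaf markers of 7 listed were 20261 and 19394 in wild type, 20556 on replicate 1 and 17282 on replicate 2. Of the 4, 1 was higher on replicate 2 (2994) than on replicate 1 (2617), the Calvin cycle gene SBPASE. Markers of both organs, such as PYK10 (1872 and 1473 in wild type) and RCA, the Rubisco activase (7469 and 7885), were well above the floor. The part of the spike-ins or of these markers in the gap was not tested. Listed flower and seed markers had no named probe set.

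Relatives of AT3G16530 in the legume lectin family that could be tested did not pass the threshold. Of 9 other genes listed, 6 had a probe set of their own and 2 were bright enough to be tested. Of these, 0 rose and 0 fell (limma, adjusted p under 0.05; 0 also at an unadjusted p under 0.05), against 2.11% higher and 1.25% lower over all tested probe sets, or 3.36% in either direction. AT1G53070 gave signals of 55.8 and 77.4 in wild type against 68.3 and 94.3 in 35S::CBF2, with a log2 difference of 0.29 (95% confidence interval -0.29 to 0.87). AT3G54080 gave signals of 80.1 and 84.3 in wild type against 83.1 and 79.0 in 35S::CBF2 (log2 difference -0.02, interval -0.49 to 0.45). The groups overlapped in both genes, and both intervals lie above the -3.77 measured for AT3G16530. The 4 dim relatives were AT5G03350, AT1G07460, AT1G53080 and AT1G53060; the first 3 were below the floor of 14.5 on every array, and AT1G53060 lay between 15.8 and 27.7.

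The tested relatives of AT3G16670 in the Ole e 1 family did not pass either. Of 20 other genes listed, 13 had a probe set of their own and 10 were tested, with 0 higher and 0 lower (limma, adjusted p under 0.05) and a median log2 difference of 0.03, against -0.04 over all tested probe sets. At an unadjusted p under 0.05, 0 were higher and 1 lower, a share near the 6.80% of all tested probe sets that were lower at this threshold. This was AT5G13140, which gave signals of 333 and 365 in wild type against 281 and 253 in 35S::CBF2 (log2 difference -0.39 ± 0.17, adjusted p = 0.349). AT3G16660, a relative that lies 3 genes before AT3G16670 in gene order, gave signals of 96.5 and 109 in wild type against 137 and 78.1 on 35S::CBF2 replicates 1 and 2. Its groups overlapped, and its log2 difference was 0.01 (95% confidence interval -0.58 to 0.60). SAH7 and AT1G78040 lay between 699 and 738 and between 2859 and 3029 on the 4 arrays, with log2 differences of 0.02 and 0.04.

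A relative, AT5G15780, was near wild type on 35S::CBF2 replicate 1 and lower on replicate 2. It gave signals of 239 and 272 in wild type, 254 on 35S::CBF2 replicate 1 and 109 on replicate 2. It did not pass (limma, log2 difference -0.62 ± 0.32, adjusted p = 0.475). Its log2 difference was -1.23 without 35S::CBF2 replicate 1 and -0.006 without 35S::CBF2 replicate 2. It was 2.33-fold apart between the 35S::CBF2 arrays, the widest gap among the 10 tested relatives, of which 5 were lower on replicate 2 than on replicate 1. Over all tested probe sets 55.5% were lower on replicate 2.

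**Figure D3:**
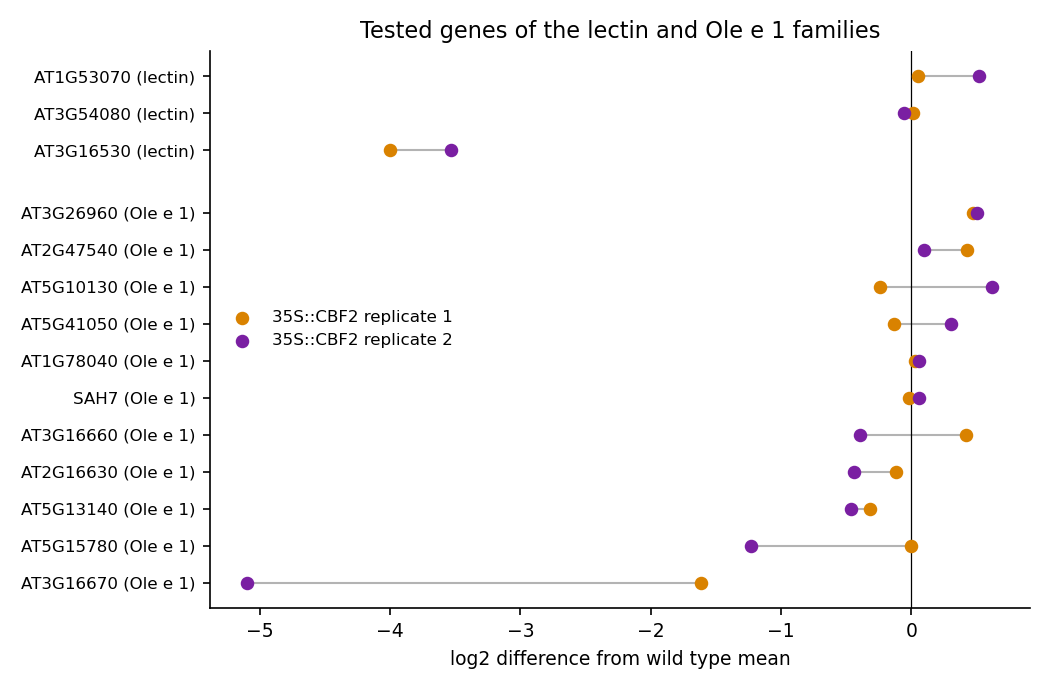
Log2 difference of each 35S::CBF2 array from the wild type mean, for the tested genes of the legume lectin and Ole e 1 lists; a grey line joins the arrays of a gene. AT3G16530 (both arrays near -4) and AT3G16670 (-1.62 and -5.10) lie apart from their relatives, among which AT5G15780 on replicate 2 is lowest.

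Chromosome 3 also holds a cluster of jacalin-related lectins and nitrile specifier genes, which lies 10 and 11 genes before AT3G16530 at its nearest measured members. Jacalin-related lectins bind carbohydrates through another fold than legume lectins, and several take part in the ER-body and glucosinolate defence system of Brassicales. Only 2 of the 9 listed genes had a probe set of their own, and 0 of these passed (limma, adjusted p under 0.05; at an unadjusted p under 0.05 both were lower). Over all tested probe sets 1.25% were lower at the adjusted and 6.80% at the unadjusted threshold. JAL33 gave signals of 46.8 and 46.0 in wild type against 24.2 and 15.7 in 35S::CBF2 (log2 difference -1.25 ± 0.35, adjusted p = 0.0984). JAL34 gave signals of 713 and 679 in wild type against 507 and 460 in 35S::CBF2 (-0.53 ± 0.15, adjusted p = 0.118). In both genes the 35S::CBF2 arrays lay below the wild type arrays without overlap, as in 23.9% of all tested probe sets. When single arrays were left out, the log2 difference of JAL33 ran from -1.56 (without 35S::CBF2 replicate 1) to -0.94 (without 35S::CBF2 replicate 2).

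Jacalin lectins elsewhere in the genome showed values in both directions. Of 18 listed, 10 had a probe set of their own and 6 were tested, with 0 past the threshold (limma) and a median log2 difference of 0.05; at an unadjusted p under 0.05, 2 were lower and 0 higher, where 6.80% and 6.25% of all tested probe sets were. These were JAL22, with signals of 199 and 124 in wild type and of 95.8 and 75.1 in 35S::CBF2 (log2 difference -0.89 ± 0.26, adjusted p = 0.112), and AT1G52000, with 88.8 and 76.9 against 35.1 and 60.6 (-0.84 ± 0.29, adjusted p = 0.202). When single arrays were left out, the log2 difference of JAL22 ran from -1.23 (without wild type replicate 2) to -0.55 (without wild type replicate 1). AT1G52050, AT1G52060 and AT1G52070, which lie close together on another chromosome, did not pass either, at log2 differences of 0.49, 0.39 and 0.32.

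The surroundings of both genes were read from gene order. Between AT3G16530 and AT3G16670 lie 19 genes of the RefSeq annotation, of which 15 code for proteins. Within 25 genes on either side of each there are 69 other genes, 21 of them with a probe set of their own and 15 tested. Of the 15, 0 were higher and 1 was lower (limma, adjusted p under 0.05), with a median log2 difference of -0.15 against -0.04 over all tested probe sets. At an unadjusted p under 0.05, 1 was higher and 5 were lower; over the array these shares were 6.25% and 6.80%. The 1 lowered neighbour was SWEET16, a vacuolar sugar transporter gene that lies 2 genes after AT3G16670. SWEET16 was bright enough to be tested only through its wild type signals, so its call is a description.

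SWEET16 gave signals of 54.3 and 55.5 in wild type against 19.8 and 14.2 on 35S::CBF2 replicates 1 and 2, without overlap between the groups. Its signal on replicate 2 was just below the floor of 14.5. With such signals raised to the floor its log2 difference was -1.70. Its geometric mean was 54.9 in wild type and 16.7 in 35S::CBF2, where it lay below the 24.8 of the filter. SWEET16 was thus tested only through its wild type signals, and its call is a description. Its log2 difference was -1.72 ± 0.34 (adjusted p = 0.0172), and it no longer passed when wild type replicate 1 (adjusted p = 0.0762), wild type replicate 2 (0.0963) or 35S::CBF2 replicate 2 (0.0702) was left out, the lone array being taken to vary like the other group, or dim probe sets were kept (0.0938), in a range from 0.0108 to 0.0963 over the alternatives. AT3G16700, the gene after it, gave signals of 67.1 and 51.7 in wild type against 31.5 and 30.02 in 35S::CBF2 and did not pass (log2 difference -0.94 ± 0.28, adjusted p = 0.131). AT3G16680, between AT3G16670 and SWEET16, was below the floor on every array. The nearest tested genes around AT3G16670 are therefore SWEET16 and AT3G16700 on one side and AT3G16660 on the other.

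None of the tested neighbours closest to AT3G16530 passed. UGT88A1, a UDP-glucosyltransferase gene 2 genes before it, gave signals of 352 and 345 in wild type against 510 and 459 in 35S::CBF2 (log2 difference 0.47 ± 0.16, adjusted p = 0.190). AT3G16560, 5 genes after it, had 122 and 95.5 in wild type against 99.5 and 134 in 35S::CBF2 (0.10 ± 0.23). KINESIN-13A, a microtubule motor gene 14 genes after it, had a log2 difference of -0.25 ± 0.22. UGT88A1 was thus above wild type on both 35S::CBF2 arrays, and AT3G16560 and KINESIN-13A overlapped with wild type. JAL34 and JAL33, 10 and 11 genes before AT3G16530, lay below wild type without overlap (log2 differences -0.53 and -1.25). AT3G16370, at the far edge of the stretch, gave signals of 2499 and 2946 in wild type against 2125 and 1872 in 35S::CBF2 and did not pass (-0.44 ± 0.15, adjusted p = 0.182).

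Between the 35S::CBF2 arrays, 14 of the 15 tested neighbours had a lower signal on replicate 2 than on replicate 1, where 55.5% of all tested probe sets did. The median of this log2 difference was -0.24 among the neighbours and -0.05 over all tested probe sets, and 0 of the 15 were 2-fold apart; the widest gap was the 1.75-fold of AT3G16660. Within 10 genes on either side 8 of 9 were lower on replicate 2 and within 50 genes 18 of 27, widths that were read after seeing the data. Each is 1 array against 1 array and has no replicate check.

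**Figure D4:**
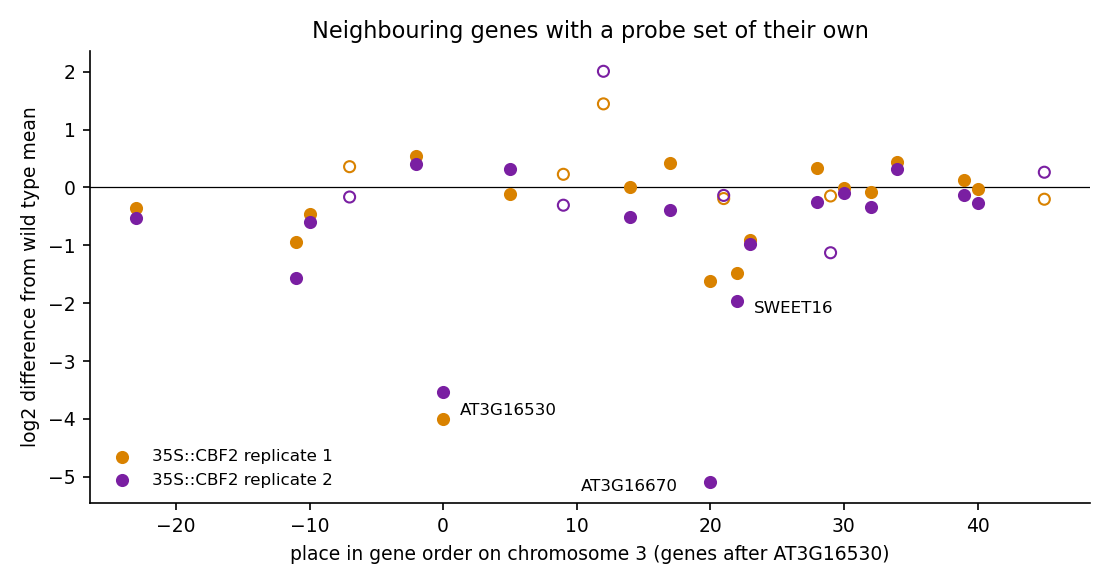
Log2 difference from the wild type mean for genes with a probe set of their own within 25 genes of AT3G16530 or AT3G16670, in gene order on chromosome 3; filled points were tested, open points were below the filter. AT3G16530 and AT3G16670 lie far below their neighbours, of which SWEET16, 2 genes after AT3G16670, is the 1 that passed the threshold. SWEET16 was bright enough to be tested only through its wild type signals.

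Genes known from defence were measured in small numbers. Of 17 jasmonate and ethylene markers listed, 3 had a probe set annotated to them alone, and the 1 tested was that of PDF1.2b. Its name marks it as one that may also detect related genes, so its signal may not be of PDF1.2b alone. It fell from 125 and 162 in wild type to 3.28 and 10.5 in 35S::CBF2, both below the floor. Its geometric mean in 35S::CBF2, 5.88, lay below the 24.8 of the filter. It was thus tested only through its wild type signals, and its call is a description. Over all tested probe sets 1.25% were lower (limma, adjusted p under 0.05). PDF1.2, below the filter and so untested, has a probe set that is not of this type. It had 84.6 and 129 in wild type against 4.4 and 4.1 in 35S::CBF2, both below the floor. THI2.1, also untested, was below the floor on every array. Of 12 genes known to respond to chitin or elicitors, 2 were tested and 0 passed (limma, against 2.11% higher and 1.25% lower over all tested probe sets). At an unadjusted p under 0.05, where 6.25% of all tested probe sets were higher, 1 was higher, the zinc finger gene STZ (log2 difference 0.92 ± 0.38, adjusted p = 0.310). AT3G46280 gave signals of 57.9 and 42.1 in wild type against 38.8 and 38.6 in 35S::CBF2 (-0.35 ± 0.29, adjusted p = 0.716). AT1G51890, a receptor kinase gene below the filter, had 25.2 and 22.9 in wild type against 2.53 and 8.54 in 35S::CBF2, both under the floor. In AT2G17740, also of this list and below the filter, the groups overlapped, with 21.4 and 8.48 in wild type against 7.47 and 18.2 in 35S::CBF2. The 8 salicylate markers listed had no named probe set.

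The profiles nearest to each gene were found among tested probe sets of 1 gene, by the root mean square difference of log2 signals centred over the 4 arrays. The nearest to AT3G16530 was PDF1.2b (0.60), then AT5G22580 (0.93), a stress-responsive A/B barrel protein gene, AT2G05540 (0.95), a glycine-rich protein gene, AT1G20070 (0.98) and SWEET16 (1.08). AT2G05540 gave signals of 583 and 594 in wild type against 172 and 132 in 35S::CBF2, and AT1G20070 had 61.9 and 52.7 against 15.2 and 16.6. In these genes, as in AT3G16530, the signal was low on both 35S::CBF2 arrays, which follows from their choice by these same signals.

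The nearest to AT3G16670 was AT3G12860 (0.76), a NOP56-like gene of ribosomal RNA processing that lies elsewhere on chromosome 3. It gave signals of 60.3 and 51.7 in wild type, 37.0 on 35S::CBF2 replicate 1 and 5.68 on replicate 2, below the floor. AT5G22580 (1.07), AT4G19430 (1.10), AT1G67860 (1.10) and IQD22 (1.23), a gene of an IQ-domain calmodulin-binding protein, followed. AT1G67860 had 57.4 and 64.5 in wild type, 34.1 on replicate 1 and 11.4 on replicate 2, and IQD22 had 67.0 and 49.7, then 45.5 and 13.3. On replicate 2 both genes were below the floor. AT4G19430 had 127 and 81.4, then 47.8 and 18.4. All 5 were lower on replicate 2 than on replicate 1, which follows from their choice by these same signals. AT5G22580, with 92.5 and 91.4 in wild type against 27.5 and 14.5 (about the floor) in 35S::CBF2, is near both profiles. With so few arrays many genes share a profile's shape: 250 named probe sets correlated with AT3G16530 above 0.95 and 414 with AT3G16670, so the order is a description only.

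**Figure D5:**
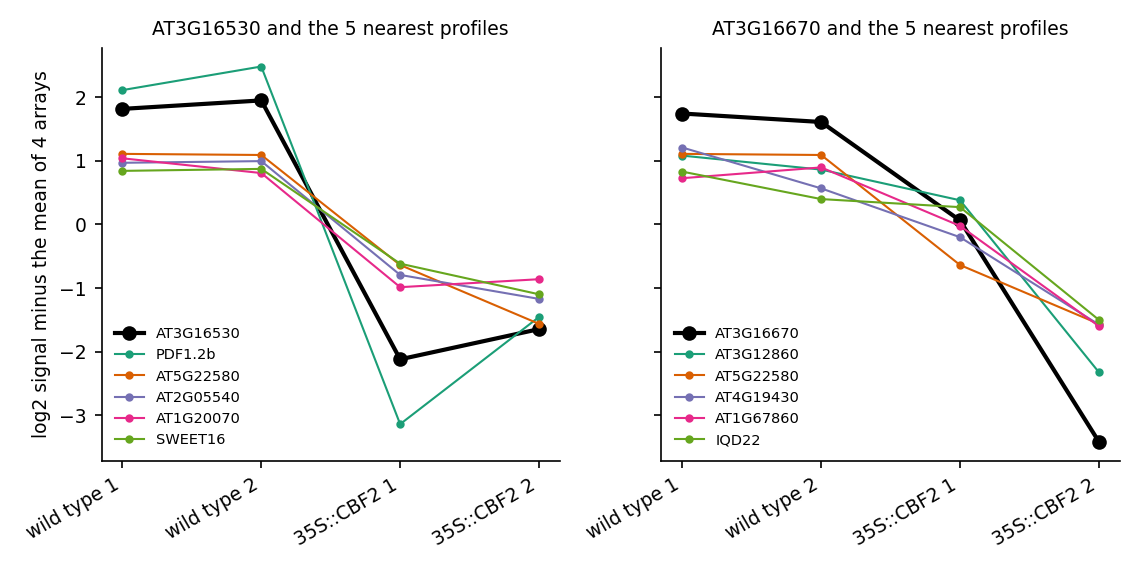
Log2 signal minus the mean of the 4 arrays for AT3G16530 and AT3G16670 (black) and the 5 genes with the smallest root mean square difference from each (colours); the lines only join the arrays of a gene. The genes near AT3G16530 are low on both 35S::CBF2 arrays, and those near AT3G16670 are lower on replicate 2 than on replicate 1. Both likenesses follow from how the genes were picked.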

How the data were processed

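Per the submitters' processing notes the deposited signal intensity values were made with MAS5. These values are linear, and their 2%-trimmed mean was 100.01 on every array, so they had been scaled before deposit. Gene names come from the platform annotation of 2016, brought up to date by gene identifier from RefSeq (TAIR10.1) (13436 of 13513 probe sets of 1 gene matched). 64 control probe sets were left out. Log2 signals were fitted in limma 3.58.1 under R 4.3.3 (eBayes with an intensity trend, two-sided, Benjamini-Hochberg over 13647 probe sets with a mean above the 40th percentile, a geometric mean of 24.8). The procedure was tested on simulated data. The number of arrays limits the precision.

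The members and lists were chosen with earlier results of these data known. Named genes are list members and neighbours that passed, up to 4 others of each list with the smallest p, and the 5 nearest profiles; other list members that are named were chosen after their values were seen. Alternatives were other scalings, an offset or floor, other filters, eBayes without trend or robust, the title letter as a block, each array left out, and an adjusted p under 0.1. Sequences and motifs were not analysed here.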

Additional observations from a re-analysis of the deposited data

Results flagged for a closer look

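The hybridisation spike-ins of 35S::CBF2 replicate 2, which no comparison used, were at 1.91 times the wild type mean, above both wild type arrays (0.986 and 1.01 times). This is the array on which AT3G16670 was lowest; the part of the spike-ins in that value was not tested.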

How the results depend on the processing

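The replicate numbers of the labels do not pair the arrays. With the letter of the titles, which the labels do not explain, as a replicate block, the log2 differences of AT3G16530 and AT3G16670 stayed at -3.77 and -3.36 and 281 probe sets were lower. With an offset of 11.7 before the log AT3G16530 had -3.32 and the 35S::CBF2 arrays were 2.83 apart for AT3G16670. Leaving out 1 array at a time, with the lone array taken to vary like the other group, gave -4.01 to -3.53 for AT3G16530 and -5.10 to -1.62 for AT3G16670, the extremes of the latter coming without 35S::CBF2 replicates 1 and 2. Higher in 35S::CBF2 were 157 probe sets without the intensity trend and, each array being left out in turn, 178 to 334, against 288. Lower were, against 170, 48 without the trend, 96 if dim probe sets stayed in, 259 at the adjusted p of 0.1, and 92 (without 35S::CBF2 replicate 2) to 271 (without 35S::CBF2 replicate 1) when single arrays were omitted. The count of lowered neighbours (1, SWEET16) became 0 with dim probe sets kept, 0 at a 60th percentile filter, where SWEET16 was no longer tested, 2 at the adjusted p of 0.1, and 0 to 2 when single arrays were omitted. The 5 nearest profiles by correlation shared 0 genes with those by distance, for AT3G16530 and for AT3G16670. Other causes were not tested. Of the comparisons of other named genes, 317 kept their side of the threshold, 11 lost the call and 8 gained it. The motif alternative was not run.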
